A study of Mus musculus with 6 samples.

Results

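The stefin A cluster genes described here are Stfa1, Stfa2, Stfa3, Stfa2l1 and BC100530, closely related copies on mouse chromosome 16. They are 5 of the 55487 genes in the expression table. Stfa1, Stfa2, Stfa3 and Stfa2l1 were found by their symbols, and BC100530 was found through its gene ID (ENSMUSG00000071561.2), which the table lists under the symbol Cstdc5. The set was chosen with the difference of these genes between the study's groups already known, so that difference is described below without a test.

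The study measured gene expression by RNA-seq in c-Kit+ cells from mouse bone marrow, a fraction that holds hematopoietic stem and progenitor cells. All cells carried a lentivirus that overexpressed MLLT3, a chromatin protein whose YEATS domain reads acylated histone lysines, and in both groups the endogenous Mllt3 gene was deleted during culture with 200 nM 4-hydroxytamoxifen. The WT group (n = 3 libraries) received wild type MLLT3, and the DM group (n = 3) received MLLT3 carrying the K63E and K67E substitutions. After sorting, cells grew for 8 days in methylcellulose with Flt3 ligand at 10 ng/mL, other hematopoietic cytokines that included EPO, SCF, GM-CSF, IL-3, IL-6 and IL-11 at 20 ng/mL each, and gentamycin at 50 µg/mL, and were then harvested. Both groups thus underwent the deletion, no library of untransduced or undeleted cells was analysed here, and the Cre line, the vector's promoter and the age of the mice are not given in the sources used here. The labels give all libraries batch 1 and do not say whether replicates came from separate animals, transductions or cultures, so the spread between libraries may be partly technical.

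Stefins, the type 1 cystatins, are small cytosolic proteins without a signal peptide that bind tightly and reversibly to papain-like cysteine proteases such as cathepsins B, H, L and S. The mouse genome carries an expanded group of stefin A copies where the human genome has the single gene CSTA. In mouse bone marrow these copies are known as transcripts of the neutrophil lineage, and in epidermis CSTA belongs to the cornified envelope.

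The values are regularized log (rlog) levels as deposited, on a log2 scale adjusted for library size and pulled toward each gene's mean where counts are low. A difference of 1 is therefore about a doubling, or somewhat more where shrinkage is strong. The table holds no counts, so the depth behind each value is unknown. Of all genes, 18766 averaged 3 or more and were tested, and their median level lay between 8.03 and 8.11 in the 6 libraries. Transcript levels of Mllt3, which do not separate vector from endogenous RNA, were 12.87, 12.60 and 12.44 in WT and 12.44, 12.03 and 11.99 in DM (difference -0.48, SE 0.137, limma adjusted p = 0.0448). The call was lost in 6 of 12 alternative settings, including the fits without WT replicate 1, WT replicate 2, DM replicate 2 or DM replicate 3. The sorting marker Kit lay between 14.29 and 14.90 in every library at harvest. Kit is also counted in the mast cell list below, so its level does not show which cells carried it.

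The 5 genes lie within 298.6 kb of chromosome 16 (GRCm38), each with 3 exon blocks in the GENCODE M21 annotation. Stfa2l1 (ENSMUSG00000059657.5, 36156811 to 36161953) and Stfa1 (ENSMUSG00000071562.6, 36276951 to 36285373) are on the plus strand. Cstdc5 (36359382 to 36367748), Stfa2 (ENSMUSG00000022902.8, 36403992 to 36408457) and Stfa3 (ENSMUSG00000054905.2, 36450537 to 36455392) are on the minus strand. Their coding sequences are 291 to 384 bases long. The most alike pairs over the coding sequence are Stfa1 with Cstdc5 (97.9% identical) and Stfa2 with Stfa2l1 (96.4%), while the other 8 of the 10 pairs share 73.1% to 81.6%.

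The sequences just upstream of the genes are also alike, and all 5 members were found in the RefSeq promoter set (GRCm38.p6). Over 250 bases before the start, identity ran from 69.9% for Cstdc5 with Stfa2l1 to 89.4% for Stfa2 with Stfa2l1, with a median of 80.5%, against a median of 79.4% over the coding sequence. Stfa1 was there 83.1% identical to Stfa3 and 81.2% to Cstdc5. Each window ends at the RefSeq start, and TTTAAA begins 9 bases before it in Cstdc5 but 30 bases before it in Stfa1. The Cstdc5 window is thus shifted against the others, so its values do not show which copy is closer upstream. The 120 bases before each RefSeq start are printed here 5′ to 3′ on the gene's strand, because they show a block shared by genes whose differences ranged widely. Capitals mark the letters TTTAAA, which resemble a TATA box, and AGATAA, the core bound by GATA factors.
Stfa1, chr16:36277028-36277147, plus strand: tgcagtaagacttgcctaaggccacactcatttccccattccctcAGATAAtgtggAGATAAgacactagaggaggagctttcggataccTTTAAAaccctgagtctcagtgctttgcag
Cstdc5, chr16:36367571-36367690, minus strand: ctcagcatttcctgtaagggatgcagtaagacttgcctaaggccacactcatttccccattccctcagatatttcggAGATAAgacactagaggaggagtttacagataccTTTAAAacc
Stfa3, chr16:36455393-36455512, minus strand: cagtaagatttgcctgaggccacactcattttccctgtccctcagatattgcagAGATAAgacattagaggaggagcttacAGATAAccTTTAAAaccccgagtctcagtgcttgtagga
Stfa2, chr16:36408364-36408483, minus strand: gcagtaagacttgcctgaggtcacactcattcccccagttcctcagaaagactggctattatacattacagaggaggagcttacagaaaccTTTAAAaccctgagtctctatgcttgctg
Stfa2l1, chr16:36156691-36156810, plus strand: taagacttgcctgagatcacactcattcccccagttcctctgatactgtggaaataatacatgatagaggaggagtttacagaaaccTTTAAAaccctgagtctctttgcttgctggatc
Every member held TTTAAA within the 250 bases. It began 29 to 33 bases before the start in Stfa2, Stfa1, Stfa3 and Stfa2l1 and 9 bases before it in Cstdc5. On either strand, 12.1% of 32851 RefSeq promoters held these letters within 250 bases of the start. The letters GAGGAGGAG, which lie ahead of TTTAAA in all 5 sequences, were held by 2.75% of promoters. The core GAGGAA, bound by PU.1, was found in 5 of 5 members on either strand and in 23.3% of all promoters. AGATAA was present in Stfa1, Cstdc5 and Stfa3 but not in the windows of Stfa2 and Stfa2l1, with 9.99% of all promoters holding it. The C/EBP letters TTGCNNAA were present in Stfa1 and Cstdc5 and in 9.56% of all promoters. These letters were not particular to the members. Cstdc4, a copy outside the set, held TTTAAA, GAGGAGGAG and GAGGAA. The pseudogene Cstdc3, with a level of 1.22 to 1.27, held all of the letters searched across its RefSeq promoters. GAGGAGGAG was not found in Csta1, Csta2 or Csta3. The motifs were chosen after the sequences had been seen, the 5 sequences share ancestry and so are not independent, and a match of letters is not evidence of binding. The RefSeq and GENCODE starts differ: the 120 bases of Stfa1 and Cstdc5 lie inside the GENCODE gene, as do 94 of those of Stfa2.

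Stfa1 had the widest gap between the groups. In the order of the replicate numbers, which is kept throughout, its rlog level read 14.34, 14.45 and 14.33 for the WT libraries and 10.98, 11.41 and 12.34 for the DM libraries. The WT libraries sat close together, the DM libraries spread widely, and every DM library was below every WT library. WT averaged 14.37 ± 0.0649 and DM 11.57 ± 0.697 (SD, n = 3 libraries each), a difference of -2.80, or 6.96-fold lower on the rlog scale. In bulk RNA of this kind, fewer cells of a type and less RNA per cell cannot be told apart.

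Cstdc5, the near copy of Stfa1, stood at 15.61, 16.0 and 16.06 in WT and at 13.55, 14.12 and 14.74 in DM. Here too all DM libraries were below all WT libraries. The means were 15.89 ± 0.245 and 14.14 ± 0.597 (SD, n = 3 each), a difference of -1.75 (3.37-fold lower).

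Stfa2 measured 13.59, 14.14 and 14.45 in WT and 12.04, 12.81 and 13.39 in DM libraries. The near copy Stfa2l1 measured 12.84, 13.26 and 13.52 in WT and 11.46, 11.86 and 12.49 in DM. In both genes the groups came close without overlapping, since the highest DM library, replicate 3, stayed just under the lowest WT library, replicate 1. The difference was -1.31 for Stfa2 (means 14.06 ± 0.439 and 12.75 ± 0.678, SD, n = 3 each; 2.48-fold lower). It was -1.27 for Stfa2l1 (13.21 ± 0.344 and 11.94 ± 0.518; 2.41-fold lower).

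Stfa3 had the smallest gap and its groups overlapped. It measured 13.06, 13.63 and 13.83 in WT and 12.33, 12.82 and 13.26 in DM, where DM replicate 3 exceeded WT replicate 1. The means were 13.51 ± 0.403 and 12.80 ± 0.464 (SD, n = 3 each), a difference of -0.70 (1.63-fold lower).

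**Figure D1:**
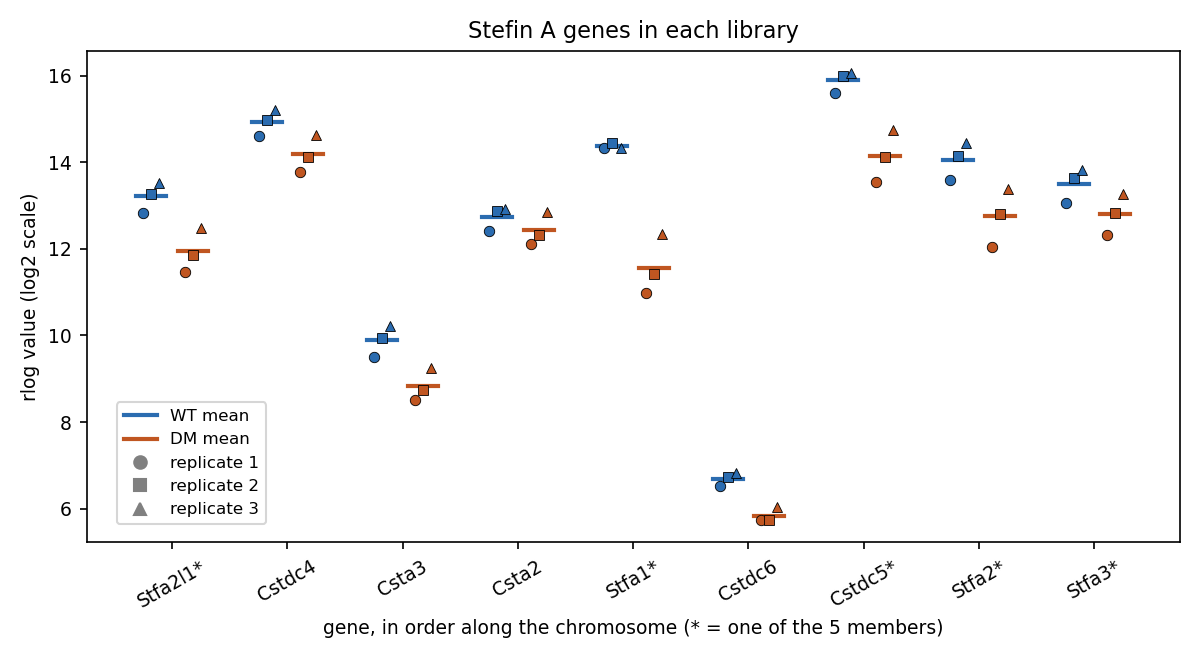
Rlog level (log2 scale) of the 9 tested stefin A genes in order along chromosome 16, with the 5 members starred, WT in blue and DM in orange, 1 marker per library (shape gives the replicate) and a line at each group mean. The DM markers lie wholly below the WT markers for Stfa1, Cstdc5, Stfa2 and Stfa2l1, and DM replicate 3 of Stfa3 (13.26) lies above WT replicate 1 (13.06).

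In 4 of the 5 members every DM library was below every WT library, which was so for 14.3% of the 18766 genes, and 35.8% of genes had groups that did not overlap in either direction. Because the members were chosen from this contrast, nothing is read from their count. The members' median difference was -1.31, beside 0.01 over all tested genes. Over the alternative scalings, the replicate block and leaving out each library in turn, the difference ran from -3.18 to -2.50 for Stfa1 and from -0.93 to -0.46 for Stfa3. For Cstdc5, Stfa2 and Stfa2l1 it ran from -2.06 to -1.46, from -1.63 to -0.96 and from -1.55 to -1.03.

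The libraries kept a fixed order in most members. In DM, replicate 1 was lowest and replicate 3 highest in 5 of 5 members, an order shown by 15.2% of all tested genes. In WT, replicate 1 was lowest and replicate 3 highest in 4 of 5 members, against 12.0% of tested genes. Stfa1 was the exception: its WT libraries spanned 0.12, while those of Stfa2, Stfa3, Stfa2l1 and Cstdc5 spanned 0.87, 0.77, 0.68 and 0.45. The DM spans were wide in every member, from 0.93 for Stfa3 to 1.36 for Stfa1.

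Within each library, Stfa1 was set against the other members. Its rlog level minus the mean of the other 4 members was 0.57, 0.19 and -0.14 in WT and -1.37, -1.50 and -1.13 in DM. These differences did not overlap between the groups (0.21 ± 0.353 and -1.33 ± 0.187, SD, n = 3 each). The contrast was found after the values had been seen and uses the measure that chose the members, so it is given as a description.

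To set levels of the genes side by side, the rlog level was reduced by the log2 of the exonic length in kb (412 bases for Stfa3 to 790 for Cstdc5). On this length-adjusted scale Cstdc5 was highest in both groups, at 16.23 ± 0.245 for WT and 14.48 ± 0.597 for DM (SD, n = 3 each). In WT it stood 1.08 above Stfa2, the next gene, which is more than the larger of the SDs (0.439). Stfa2 (15.15), Stfa1 (14.87), Stfa3 (14.79) and Stfa2l1 (14.46) followed with gaps of 0.28, 0.08 and 0.32, all within the larger SD of the genes compared. The step from Stfa3 to Stfa2l1 nevertheless held in all 3 WT libraries, as did that from Cstdc5 to Stfa2. The steps from Stfa2 to Stfa1 and from Stfa1 to Stfa3 held in 2 of 3. In DM the order became Cstdc5 (14.48), Stfa3 (14.08), Stfa2 (13.83), Stfa2l1 (13.19) and Stfa1 (12.07). Only the last step, 1.12 from Stfa2l1 to Stfa1, exceeded the larger SD (0.697), and each step of the DM order held in all 3 DM libraries.

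Taking the length-adjusted values back to the linear scale gives each gene's share of the summed stefin A signal over the 9 tested copies. Stfa1 made up 16.1%, 13.1% and 11.0% of the sum in WT and 4.58%, 4.38% and 5.63% in DM. Cstdc5 made up 34.9%, 34.6% and 32.9% in WT and 24.4%, 25.8% and 26.7% in DM, so both of these near copies took a smaller share in every DM library than in any WT library. Stfa3 took a larger share in DM, 20.1%, 20.2% and 18.3%, than in WT, 11.4%, 12.9% and 13.4%. The shares of Stfa2 (14.4% to 18.1% in WT, 14.4% to 17.6% in DM) and Stfa2l1 (9.65% to 10.7% and 10.2% to 10.8%) overlapped. Together the 5 members were 86.1% to 86.4% of the sum in WT and 74.4% to 78.8% in DM. Shares sum to a whole, so a fall in one raises the others.

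**Figure D2:**
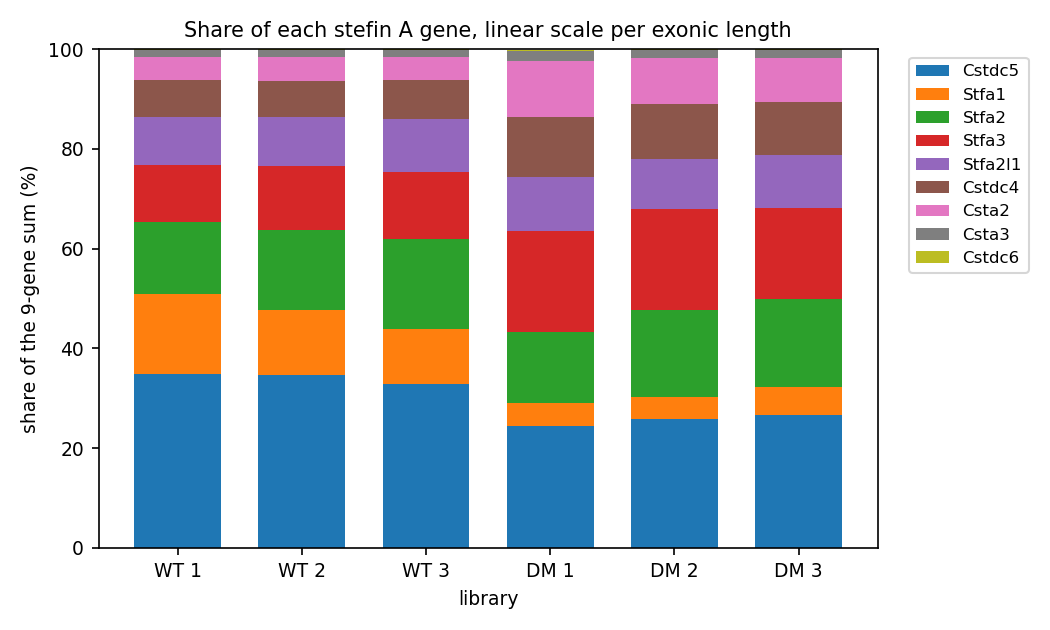
Share (percent) of the summed linear, length-adjusted rlog signal of the 9 tested stefin A copies, 1 stacked bar per library. The Stfa1 segment is 11.0% to 16.1% in the WT bars and 4.38% to 5.63% in the DM bars, and the Stfa3 segment is 18.3% to 20.2% in DM against 11.4% to 13.4% in WT.

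The copies are alike enough that reads could be divided between them, and how the authors treated such reads is not given in the sources used here. In the GENCODE M21 transcripts, 26.9% of the 50-base windows of Stfa1 occur in the transcript of another gene, 23.1% in Cstdc5 alone. For Cstdc5 the share is 48.9%, for Stfa2l1 24.6% and for Stfa2 15.9%, whereas none of the 50-base windows of Stfa3 recurs elsewhere. With windows of 100 bases the shares fall to 5.60% for Stfa1 and 22.3% for Cstdc5, and to 0 for Stfa2, Stfa2l1 and Stfa3. For Cstdc5 the main partner at 100 bases was the antisense RNA Gm15845 (9.23%), which is not a stefin copy. The read length is not given in the sources used here, so the separate levels of Stfa1 and Cstdc5, and of Stfa2 and Stfa2l1, are uncertain to an extent that was not tested.

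A list of further genes named as stefin A or cystatin domain genes held 9 in the table, 6 of them on chromosome 16. Of the 9, 4, all on chromosome 16, passed the filter on the mean, 3 were lower in DM by the limma test and none was higher, also at an unadjusted p under 0.05. By the same test 13.9% of all 18766 genes were called (2611), 4.71% as lower and 9.20% as higher. At an unadjusted p under 0.05 there were 5415 genes, 3381 of them higher in DM, the background for such counts in the lists below. The split of called genes leans on the scaling: 66.1% were higher in DM as deposited and 51.3% after quantile normalization (1362 higher and 1292 lower).

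Csta3, a copy near the left end of the cluster, measured 9.50, 9.94 and 10.22 in WT and 8.52, 8.75 and 9.24 in DM. The groups did not overlap (difference -1.05, SE 0.201, limma adjusted p = 0.00984). Cstdc6, a low copy, measured 6.53, 6.73 and 6.82 in WT and 5.74, 5.75 and 6.04 in DM (difference -0.85, SE 0.103, limma adjusted p = 0.00166). Both calls held in all 12 alternative settings. Cstdc4 measured 14.61, 14.97 and 15.20 in WT and 13.78, 14.12 and 14.63 in DM, with DM replicate 3 just above WT replicate 1. Its difference was -0.75 (SE 0.207, limma adjusted p = 0.0394), and the call was lost without WT replicate 2, WT replicate 3, DM replicate 1 or DM replicate 2 (adjusted p 0.0669 to 0.112). Csta2 measured 12.41, 12.87 and 12.91 in WT and 12.12, 12.32 and 12.86 in DM, overlapping groups that did not pass the test (difference -0.30, SE 0.187, limma adjusted p = 0.315). Csta1 and Cstdc3 on chromosome 16, and Cstdc1, Cstdc2 and Cstdc7 on other chromosomes, which are not copies within the cluster, had means below 3 and were not tested.

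Genes around the cluster centred near no difference. Within 500 kb on either side of the members, 21 tested genes that are not stefin genes had a median difference of 0.04. The 4 tested stefin genes outside the set had a median of -0.80. Over all 9 tested stefin genes there it was -1.05, which includes the 5 members chosen from this contrast. Of those 21 genes, 4 were called, 2 higher and 2 lower. The nearest protein-coding neighbours, Ccdc58 (27.8 kb to the left, difference -0.20, limma adjusted p = 0.159) and Cd86, a T cell co-stimulatory ligand (148.5 kb to the right, 0.13, adjusted p = 0.419), did not pass the test.

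Gm15845, an RNA antisense to Cstdc5 that overlaps it, was lower in DM, at 6.20, 6.38 and 6.26 in WT and 5.69, 5.85 and 5.95 in DM (-0.45, SE 0.0846, limma adjusted p = 0.00933). Whether the counting used strand is not given in the sources used here. If it did not, reads from the stretch where Gm15845 and Cstdc5 overlap (36367070 to 36367748) cannot be assigned to either gene. Of the 100-base windows of Cstdc5, 9.23% occur in the transcript of Gm15845. The other called genes in the window were Fam162a (-0.56), Gm15564 (0.34) and Hcls1 (0.29, a call lost after quantile normalization and without WT replicate 1 or any one DM replicate). In the wider list of chromosome 16 neighbours, 3 of 19 tested genes were called (median -0.05), a count that was 7 without WT replicate 2 and 5 with the replicate block.

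**Figure D3:**
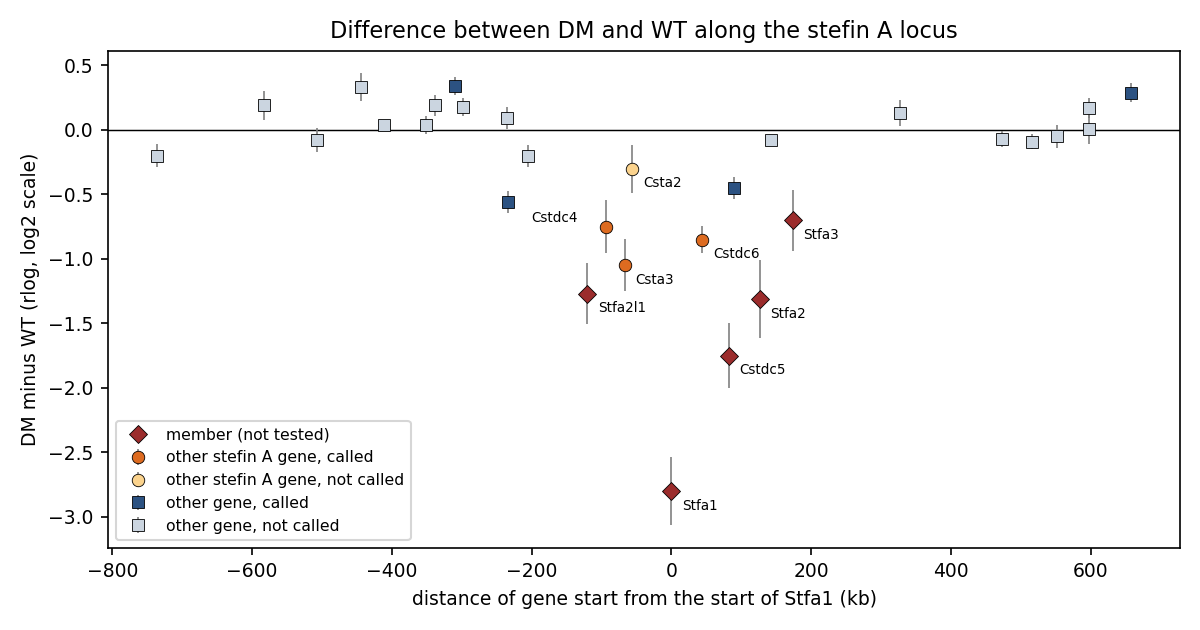
Difference in rlog level (DM minus WT, log2 scale, bars are the SE of the fit) of tested genes against the distance in kb of their start from that of Stfa1, with members (diamonds), other stefin A genes (circles) and other genes (squares), called genes in the darker shade. The members, which were chosen from this contrast, run from -2.80 (Stfa1) to -0.70 (Stfa3), and the 21 genes that are not stefins have a median of 0.04.

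Among other genes of the cystatin family, those that changed were higher in DM. Of 16 genes listed, 5 were tested, 2 were higher in DM and none was lower, also at an unadjusted p under 0.05. The 5 include Cstad (-0.04, limma adjusted p = 0.602), which is not a cystatin gene despite its symbol. Cstb encodes stefin B, the other cytosolic stefin, and measured 11.94, 12.23 and 11.90 in WT and 12.70, 12.85 and 12.68 in DM. Every DM library was above every WT library (difference 0.72, SE 0.0979, limma adjusted p = 0.00290). Cst3, which encodes the secreted cystatin C, was higher by 0.39 (SE 0.111, limma adjusted p = 0.0433), but the call was lost in 7 of 12 alternatives, among them the fits without WT replicate 1 or 3 and without any one DM replicate. Cst7, encoding cystatin F, did not pass (-0.15, limma adjusted p = 0.292); it is counted in the early neutrophil list as well.

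Cysteine cathepsins, the proteases that stefins bind, and legumain, an asparaginyl protease outside the papain-like family, were higher in DM where they changed. Of 11 cysteine cathepsins and legumain, 7 were higher and none was lower, with a median difference of 0.59, and the count was 4 without DM replicate 2. None was lower at an unadjusted p under 0.05. Ctss, encoding cathepsin S of antigen-presenting cells, measured 14.16, 14.66 and 13.82 in WT and 15.01, 15.44 and 15.07 in DM (difference 0.96, SE 0.193, limma adjusted p = 0.0115). Ctsb was higher by 0.80 (adjusted p = 0.0108), Lgmn, which encodes legumain, by 0.75 (adjusted p = 0.00626) and Ctsl by 0.67 (adjusted p = 0.0120; 0.05 without DM replicate 2). Cathepsin C (Ctsc, 0.28) did not pass (limma adjusted p = 0.0634).

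Neutrophil genes that changed were lower in DM, as the stefin A means were. Of 20 late neutrophil genes, which encode proteins of the later granules and of mature neutrophils, 13 were lower and none was higher by the limma adjusted p. At an unadjusted p under 0.05, 1 was higher, the collagenase gene Mmp8 (0.50, limma adjusted p = 0.0521). The median difference was -0.78. The 4 largest called differences were those of the integrin gene Itgb2l (-1.69, limma adjusted p = 0.00281), the antimicrobial genes Camp (-1.66, adjusted p = 0.00514) and Ngp (-1.62, adjusted p = 0.00787), and the surface marker Cd177 (-1.62, adjusted p = 0.00494).

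Of 12 early neutrophil genes, which are switched on with the first granules in promyelocytes, 8 were lower and none was higher, also at an unadjusted p under 0.05, with a median of -2.05. Myeloperoxidase, Mpo, measured 15.30, 15.07 and 14.09 in WT and 11.10, 9.57 and 11.10 in DM (-4.23, SE 0.409, limma adjusted p = 0.000444). The elastase gene Elane (-3.96, adjusted p = 0.000118), the proteinase 3 gene Prtn3 (-3.37, adjusted p = 0.000118) and Ms4a3 (-2.70, adjusted p = 0.000102) also fell.

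The summed levels of both lists were lower in DM. On the log2 scale, the summed rlog signal of the 5 stefin A members was 16.59 to 17.07 in WT and 14.68 to 15.85 in DM. That of the late neutrophil genes was 18.69 to 19.25 in WT and 17.99 to 18.51 in DM, and that of the early genes 17.00 to 17.52 and 16.34 to 16.74. None of these genes was listed at 0. The late list shared the library order of the stefin A genes: its mean, centred over the 6 libraries, was 0.04, 0.49 and 0.61 in WT and -0.77, -0.31 and -0.05 in DM. The early list did not, with 1.10, 1.01 and 0.62 in WT and -0.82, -1.16 and -0.75 in DM. The members' mean on that scale was 0.46, 0.87 and 1.02 in WT and -1.35, -0.82 and -0.18 in DM. The part of a shift in neutrophil cells in the stefin A differences was not tested.

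**Figure D4:**
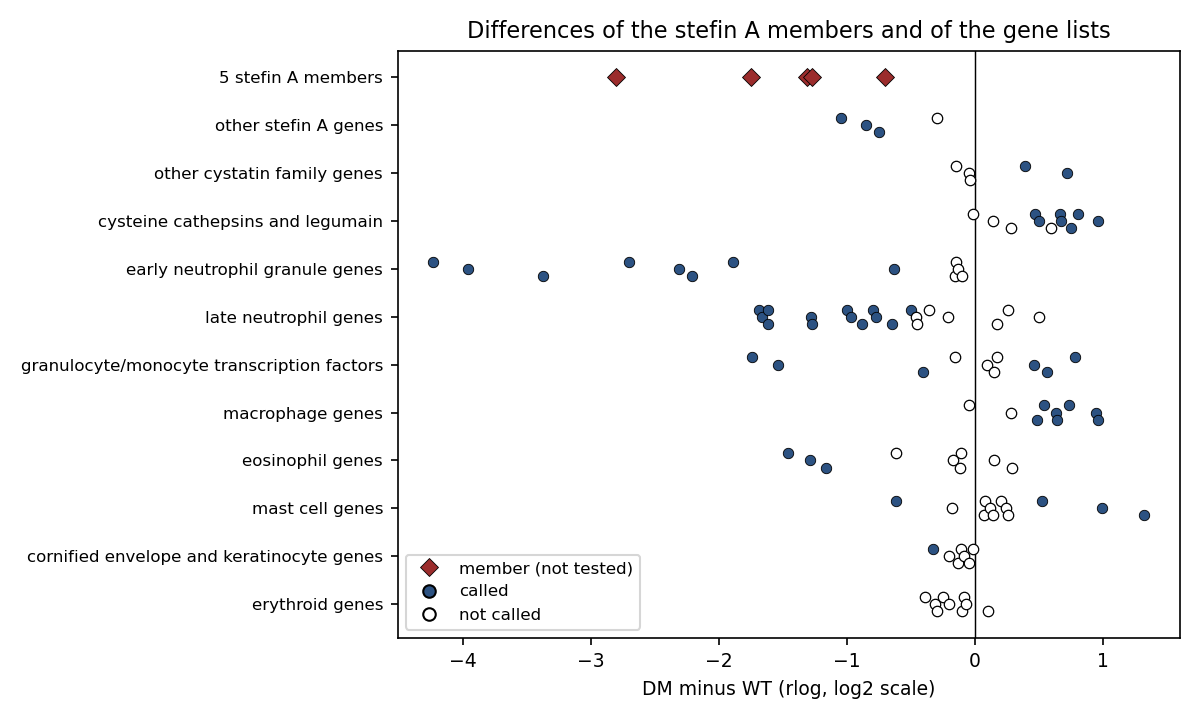
Difference in rlog level (DM minus WT, log2 scale) by gene list, 1 marker per tested gene, filled where the limma adjusted p was under 0.05, with the untested members as diamonds (vertical offsets within a list only separate markers). The stefin A members (median -1.31) and the early (-2.05) and late (-0.78) neutrophil lists lie mostly on the lower side, and the cathepsins (0.59) and macrophage genes (0.63) mostly on the higher side.

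Among 10 transcription factor genes of granulocytes and monocytes, 3 were higher and 3 lower in DM. Cebpe, which drives the later granule genes, measured 10.47, 10.64 and 10.60 in WT and 8.51, 8.80 and 9.17 in DM, groups far apart (-1.74, SE 0.139, limma adjusted p = 0.000157). Gfi1, a repressor needed for neutrophil development, was also lower (-1.54, SE 0.139, limma adjusted p = 0.000306). Klf4 (0.78, limma adjusted p = 0.0114) and Irf8 (0.56, adjusted p = 0.0160), both linked to monocytes, were higher, as was Cebpb (0.46, adjusted p = 0.0309). The call of Irf8 was lost without WT replicate 1, DM replicate 2 or DM replicate 3. Leaving out WT replicate 1, or DM replicate 2, brought the called factors to 3. Spi1, which encodes PU.1, did not pass (0.15, limma adjusted p = 0.317).

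Markers of other cells that the cultures could hold also moved. Of 9 tested macrophage genes, 7 were higher and none was lower, with a median of 0.63, led by Gpnmb (0.96, limma adjusted p = 0.0120), Cd68 (0.94, adjusted p = 0.00777) and Csf1r (0.73, adjusted p = 0.00415). None was lower at an unadjusted p under 0.05. The complement genes C1qa, with 2.45 to 2.56, and C1qb, with 2.97 to 3.11, were low in all libraries. The summed macrophage signal was 16.49 to 17.24 in WT and 17.63 to 17.87 in DM, on the opposite side from the stefin A genes.

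Of 12 mast cell genes, 3 were higher and 1 lower (median 0.17), 2 in all without WT replicate 2, WT replicate 3 or DM replicate 2, and the summed signal was 18.94 to 19.32 in WT and 19.10 to 19.51 in DM. Of 9 eosinophil genes, 3 were lower (median -0.17) and none was higher, with 1 higher at an unadjusted p under 0.05, and the summed signal was 15.24 to 15.37 in WT and 14.18 to 14.57 in DM. Of 9 tested erythroid genes, 0 were called by limma and 0 had an unadjusted p under 0.05 (median -0.20), with a summed signal of 12.87 to 12.96 in WT and 12.67 to 12.96 in DM.

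Stefin A is also a keratinocyte protein, and most of the keratinocyte list was low here. Of 13 cornified envelope and keratinocyte genes, 6 had a mean below 3, Sprr2a1 being listed at 0 in every library, and the keratin gene Krt14 measured 2.06 to 2.16. The transglutaminase gene Tgm1 lay between 9.37 and 9.94 and Ivl between 6.35 and 6.59, above the rest of the list. Of the 7 tested, 1 (14.3%, beside 13.9% of all tested genes) was lower, Tgm1 (-0.33, limma adjusted p = 0.0444). That call was lost without WT replicate 3 or any one DM replicate. None was higher, also at an unadjusted p under 0.05. The summed signal, most of it from Tgm1, was 9.86 to 10.18 in WT and 9.68 to 9.72 in DM, far below that of the stefin A genes. The part of these other cell types in the stefin A differences was not tested.

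The profile of Stfa1 over the 6 libraries, centred on its mean, was set against those of 18726 tested genes with a symbol of their own by the root mean square distance in log2 units. The median distance was 1.46. The 6 nearest genes outside the set were Lipg, which encodes endothelial lipase (0.20), the ficolin gene Fcnb (0.30), Ms4a3 (0.34), Plac8 (0.38), Prtn3 (0.52) and Cebpe (0.57). Lipg measured 13.61, 13.73 and 13.66 in WT and 10.81, 10.97 and 11.77 in DM, which repeats the narrow WT and wide DM spread of Stfa1 (difference -2.48). Of the other members, Cstdc5 was nearest to Stfa1 (0.55), followed by Stfa2 (0.79), Stfa2l1 (0.80) and Stfa3 (1.08). With 6 libraries in 2 groups, such a distance mostly reflects the size of the difference between groups, and it uses the contrast that chose the members.

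The nearest genes of the other members were different ones, and were looked up after the values had been seen. S100a9, a calprotectin subunit of neutrophils, was nearest to both Stfa2 (0.11) and Stfa2l1 (0.09). S100a9 measured 16.72, 17.09 and 17.45 in WT and 15.26, 15.91 and 16.30 in DM, with the library order of both stefin genes. The copy Cstdc4 was nearest to Stfa3 (0.08), and Itgb2l was nearest to Cstdc5 (0.14), ahead of Cebpe (0.18) and Camp (0.21).

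The members' distances from the mean centred profile of each neutrophil list are given as a description. Stfa1 lay 0.63 from the early list and 1.05 from the late list. Stfa3 lay 0.72 from the early list and 0.09 from the late list, Stfa2 0.61 and 0.34, and Stfa2l1 0.52 and 0.28. Cstdc5 lay 0.44 from the early and 0.52 from the late list. Here too a distance mostly follows the size of the difference between groups, which chose the members, so nothing is read from which list is nearer. Cstdc5, for one, had the library order of the late list.

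**Figure D5:**
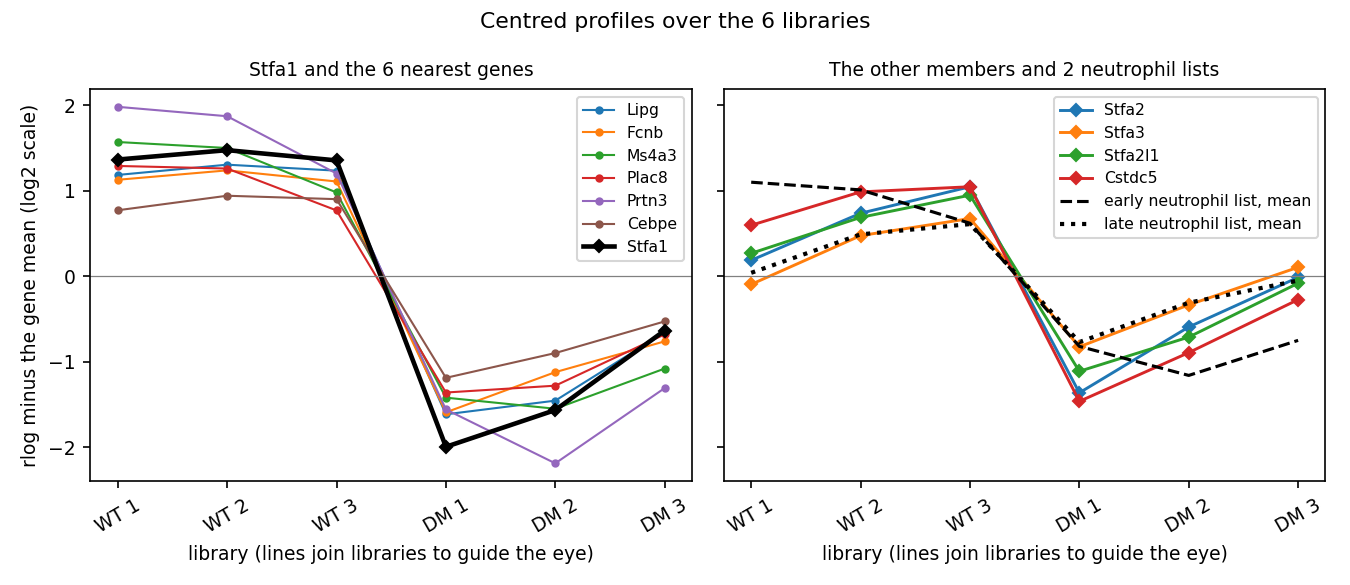
Centred rlog level (log2 scale, each gene minus its mean over the 6 libraries) by library, with Stfa1 and its 6 nearest genes on the left, and the other members with the mean profiles of the early and late neutrophil lists on the right. Stfa1 is flat over the WT libraries, which span 0.12. Stfa3 lies at a root mean square distance of 0.09 from the late list, a measure that mostly reflects the size of the difference between groups.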

How the data were processed

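RNA-seq values of 6 libraries (3 WT, 3 DM) were analysed, grouped by the sample titles. The deposited log2 values are regularized log (rlog) levels, as the table's name and its values show. Per the submitters' processing notes, the authors used cutadapt 2.6, STAR 2.7.3 and DESeq2 1.30.0 with build mm10; the counting tool, strand, read length and depth are not given in the sources used here, so no interval from counts can be given.

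Rows repeated per transcript were merged to 55487 genes. limma 3.58.1 (R 4.3.3, lmFit, eBayes with trend, no covariates) was run on 18766 genes averaging 3 or more, with Benjamini-Hochberg adjustment over all of them and a threshold of 0.05. No pseudocount was needed. On simulated data of 18766 genes it recovered 96 of 100 genes changed by 1 and 100 of 100 changed by 2 on the log2 scale, with 8 false calls. The simulated noise was drawn independently for each gene, unlike the real libraries, so these rates need not carry over to these data.

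Coordinates and exonic lengths came from GENCODE M21 on GRCm38, which matched 98.1% of gene IDs, and promoters from RefSeq (GRCm38.p6). Identity was taken over aligned columns (Biopython 1.88), as the highest value over coding transcript pairs. Named genes were all members, other stefin A genes, up to 4 called genes with the largest difference per list, the nearest tested protein-coding neighbours, Mllt3 and the 6 genes nearest to Stfa1; any others were picked with their values in view. The lists were other stefin A genes, neighbours, other cystatins, cathepsins, early and late neutrophil, transcription factor, keratinocyte, macrophage, mast cell, eosinophil and erythroid genes. Members and lists were chosen with earlier results of these data known. Alternatives covered the filter, variance trend, scaling, replicate block, linear scale and each library left out.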

Additional observations from a re-analysis of the deposited data

How the results depend on the processing

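The median difference of the 5 stefin A members was -1.31, and ran from -1.63 to -1.03 with 1 library left out. The median and each member's difference moved by less than 1 SD, pooled over the groups, under every alternative run. None changed sign. Leaving out 1 of 3 libraries cannot move a group mean that far, and the replicate block leaves a balanced difference as it is. Nor can leaving out a library change the sign where the groups do not overlap. These outcomes were therefore largely fixed in advance. Stfa1 and Cstdc5 moved by more than their smaller WT SD, to -3.18 and -2.06 without DM replicate 3, and Stfa3 went from -0.70 to -0.46 without DM replicate 1. Of 44 named genes with a test, 34 kept their call and direction in all alternatives, 10 lost the call in at least 1 and 0 reversed. Genes called (2611) ran from 1119 to 3475 with 1 library left out, those lower in DM (884) from 521 to 1152 and those higher (1727) from 598 to 2323. Without the filter, which left out 7553 genes at exactly 0 in all libraries and tested 47934, 1132 genes were higher. Neighbours of the locus (3 called) numbered 5 with a mean of at least 5 and 2 to 7 with 1 library left out. Other cystatins (2) fell to 1 without the filter and after quantile normalization, and ran from 1 to 2 with 1 library left out. Cathepsins (7) ran from 4 to 9, transcription factors (6) from 3 to 5 and keratinocyte genes (1) from 0 to 3 with 1 library left out, and keratinocyte genes numbered 0 without the filter. Mast cell genes (4) numbered 2 without the filter, 2 without the variance trend, 2 after median centring and 2 to 3 with 1 library left out. With the replicate block, 2632 genes were called higher, 3742 in all, and 5 neighbours of the locus. The numbers were not taken to pair the libraries: deviations of same-numbered libraries correlated across genes at 0.491, 0.116 and 0.041, and WT replicate 3 correlated more with DM replicate 2 (0.124) than with its own number. The cause of these changes was not tested, and the unknown depth limits how small a difference in a low gene can be read.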
